A study of Homo sapiens with 4 samples.

Results

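The genes described here are 10 human genes of the unfolded protein response and of endoplasmic reticulum (ER)-associated degradation (ERAD): *ERN1*, *ATF6* and *XBP1*, which sense or transmit ER stress, and *HERPUD1*, *SYVN1*, *SEL1L*, *DERL1*, *DERL2*, *DERL3* and *EDEM1*, which act in ERAD. They are taken here by symbol, with earlier results of these data known, and each matched 1 of the 61806 genes in the count table. The 2 cell lines compared were both labelled wild type: MDA-MB-231, from a breast cancer, and MDA-MB-435, by its label a melanoma line. Each was sequenced as a control and after 6 h with CPYPP, a small molecule known as an inhibitor of DOCK guanine nucleotide exchange factors, at 10 µM. Poly(A) RNA was read in 4 libraries, 1 per condition, so no value has a replicate check. The labels do not say what the control cells received, and their treatment description names MDA-MB-435 for every library, so the line was taken from each sample's own label.

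Proteins that fail to fold in the ER are sensed by the transmembrane proteins IRE1α (the product of *ERN1*), ATF6 and PERK (the product of *EIF2AK3*). Activated IRE1α cuts a short intron from *XBP1* mRNA, whereas ATF6 is cleaved in the Golgi to release a transcription factor. XBP1 and ATF6 switch on genes for chaperones and for ERAD, and PERK slows translation while favouring that of ATF4. In ERAD, EDEM1 helps to select misfolded glycoproteins, and the ubiquitin ligase HRD1 (the product of *SYVN1*) works in the ER membrane with SEL1L, the derlins and HERPUD1. The segregase VCP then draws the ubiquitinated substrate into the cytosol for the proteasome.

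The sequences that the results below refer to are the promoters of *HERPUD1* and *XBP1*, the genes with the largest mean log2 fold over both lines among the 10. RefSeq promoter windows on GRCh38.p14, from 250 bases before to 50 after a start site, were given for 8 of the 10 genes (not for *DERL1* and *DERL3*). The stretch of *HERPUD1* is chr16:56931892-56932141 on the plus strand, and that of *XBP1* is chr22:28800598-28800819 on the minus strand, each printed 5′ to 3′ up to the first base of the gene as deposited. For *XBP1* that base lies upstream of the RefSeq start site from which positions are counted. Capitals mark the ER stress response element, ERSE (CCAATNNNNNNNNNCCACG), or its variant ERSE-II (ATTGGNCCACG), the letters known as binding sites of ATF6 and XBP1 together with NF-Y. Both strands were searched.
HERPUD1: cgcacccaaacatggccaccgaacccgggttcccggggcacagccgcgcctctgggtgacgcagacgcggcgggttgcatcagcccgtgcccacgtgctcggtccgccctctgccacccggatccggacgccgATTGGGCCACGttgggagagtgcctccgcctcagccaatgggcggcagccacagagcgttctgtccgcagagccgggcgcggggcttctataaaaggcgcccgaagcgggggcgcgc
XBP1: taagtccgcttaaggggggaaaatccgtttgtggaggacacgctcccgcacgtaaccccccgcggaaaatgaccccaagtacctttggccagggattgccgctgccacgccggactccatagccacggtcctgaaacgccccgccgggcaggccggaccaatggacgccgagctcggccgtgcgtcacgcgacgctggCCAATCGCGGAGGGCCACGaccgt

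The ERSE-II of *HERPUD1* lay at −117 to −107 from its start site, and the ERSE of *XBP1* at −52 to −34 in the first of its 2 windows. Neither element was found in the windows of *ERN1*, *ATF6*, *SYVN1*, *SEL1L*, *DERL2* and *EDEM1*. Of all 35116 windows, 0.0769% held an ERSE and 0.0541% an ERSE-II. *HERPUD1* also held TGATGNAA, the letters of the C/EBP-ATF element through which ATF4 and C/EBP proteins can bind, at −176 to −169 on the minus strand. These letters were present in 3.62% of windows. The UPRE core (TGACGTGG, 0.729% of windows) and the heat shock element (GAANNTTCNNGAA, 0.490%) had no match in the windows of the 8 genes. The letters of the antioxidant element (TGACNNNGC, 13.3%) occurred in those of *ERN1* and *SEL1L*. In *HYOU1*, 1 match of the UPRE core overlaps an ERSE-II.

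The same elements are shown for 3 ER chaperone genes, as examples, picked after their values were seen, of genes that carry the letters of *HERPUD1* or *XBP1* with folds below theirs. Other genes with an ERSE, *ERO1B* and *SERP1*, had higher folds than these 3 in both lines, and their values are given with the chaperones. Their stretches lie at chr9:125241381-125241419 for *HSPA5*, chr11:119057264-119057294 and chr11:119057370-119057400 for *HYOU1*, all on the minus strand, and chr22:21642104-21642134 on the plus strand for *SDF2L1*. The capitals in *HYOU1* and *SDF2L1* are ERSE-II read on the opposite strand.
HSPA5: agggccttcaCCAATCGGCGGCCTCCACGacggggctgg
HYOU1, nearer the start site: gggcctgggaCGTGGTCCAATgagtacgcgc
HYOU1, farther from it: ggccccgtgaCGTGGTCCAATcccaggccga
SDF2L1: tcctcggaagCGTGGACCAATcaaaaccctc

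The other sequence that bears on these genes is the stretch that IRE1α removes from *XBP1* mRNA. In GENCODE v29 one transcript of *XBP1* keeps it in exon 4, within the coding sequence, and another lacks it, at chr22:28796124-28796149 of GRCh38 on the minus strand. It is shown in capitals with 20 bases on each side, because a count per gene adds up reads with and without these 26 bases.
XBP1, unspliced: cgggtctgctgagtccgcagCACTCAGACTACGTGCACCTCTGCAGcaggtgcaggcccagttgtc
The *XBP1* counts below therefore measure both forms together and hold no measure of IRE1α activity.

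**Figure D1:**
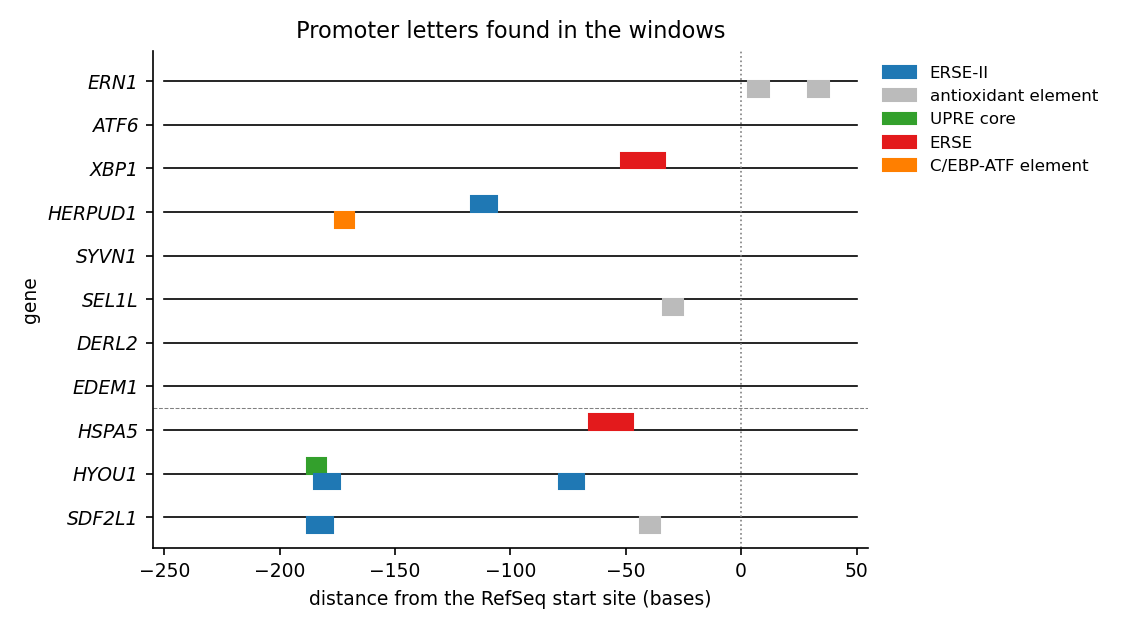
Matches to the letters of 5 elements in the promoter windows of 8 of the 10 genes (above the dashed line) and of 3 ER chaperone genes, by distance from the RefSeq start site in bases; boxes above a line lie on the gene's strand and boxes below it on the other strand. Among the 8 genes, *XBP1* holds an ERSE at −52 to −34 and *HERPUD1* an ERSE-II at −117 to −107. The heat shock element was searched and not found in these windows.

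The libraries held 22359735 counts in the MDA-MB-231 control, 17196385 in its CPYPP library, 22663954 in the MDA-MB-435 control and 19489282 in its CPYPP library. The 10 genes together took 18460, 17030, 16341 and 21899 of these counts. Counts were scaled by the trimmed mean of M values (TMM) and are given per 1e6 counts (CPM), or per kilobase of exon as well (FPKM) where genes are compared with each other. A gene was called within a line when its fold change was over 2 and its adjusted p-value under 0.05 in an exact binomial test (edgeR), which compares 2 libraries and not the conditions. Intervals in brackets are 95% Clopper-Pearson intervals and, like this test, cover counting error alone. *SOX10*, a melanocyte gene, had 0 and 1 counts in the MDA-MB-231 libraries and 3031 and 707 in the MDA-MB-435 libraries. *KRT19*, an epithelial keratin, had 3953 and 2225 counts in MDA-MB-231 cells and 4 and 0 in MDA-MB-435 cells, so both genes matched the lines' labels. They are 1 each of 8 melanocyte and 6 epithelial markers. However, 3 of the 6 epithelial markers reached 10 counts in a library of MDA-MB-435. Likewise, 3 of the 8 melanocyte markers did so in MDA-MB-231, so not every marker was absent from the other line. The pigment genes *TYR*, *MLANA* and *PMEL* had between 0 and 34 counts in every library, so those markers of a melanoma line were at or near 0 in MDA-MB-435. Of the 8 melanocyte markers, 7 were tested in MDA-MB-435 and 1 was called lower after CPYPP, *SOX10* at a fold of 0.291. Among all genes 7.16% were called lower in that line. Of the 6 epithelial markers 0 were called in either line. Whether the fall of *SOX10* has a part in the results below was not tested.

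In MDA-MB-231, 1 of the 9 genes tested was called higher after CPYPP, *HERPUD1*, beside 4.17% of the 16441 genes tested. In MDA-MB-435, 2 of 10 were called higher, *HERPUD1* and *XBP1*, beside 2.89% of 16527. No member was called lower in either line (0 of 9 and 0 of 10), where 3.13% and 7.16% of all genes were. The median log2 fold change of the genes tested was 0.18 for MDA-MB-231, against 0.09 for MDA-MB-435, beside −0.02 and −0.06 over all genes tested. With total counts as the scaling the median of the genes in MDA-MB-435 turned to −0.00742, with 5 of 10 above 0 in place of 7. In a bulk sample, a change in RNA per cell and a change in the share of cells that hold it cannot be told apart.

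**Figure D2:**
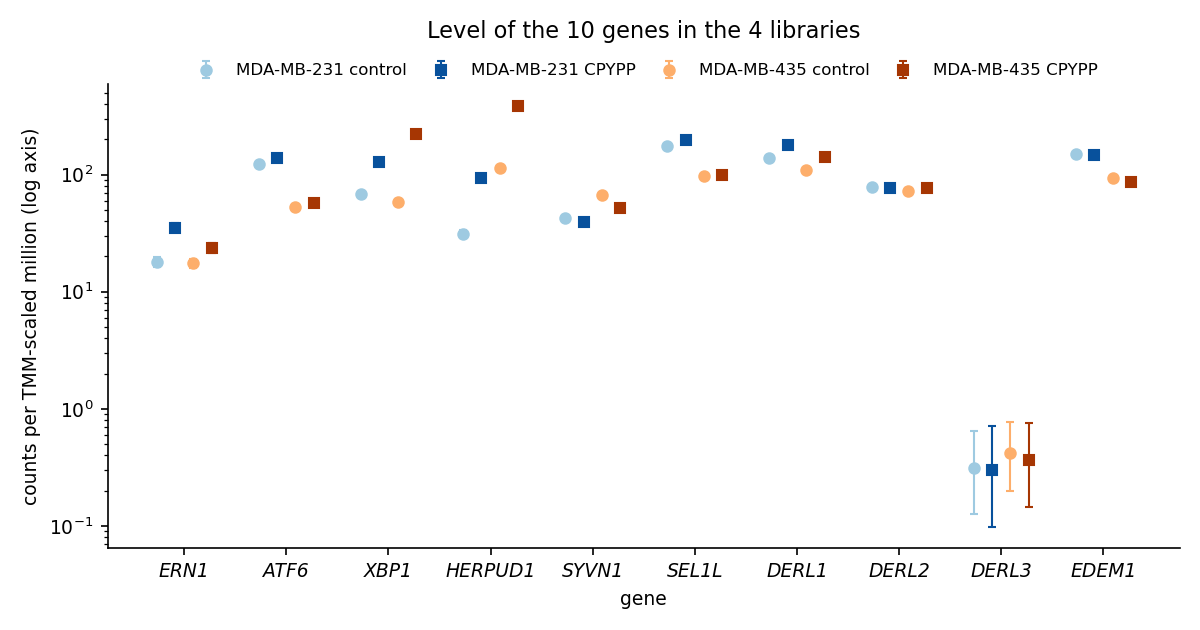
TMM-scaled CPM (log axis) of the 10 genes in the 4 libraries, with control libraries as circles, CPYPP libraries as squares and 95% Poisson intervals of the counts as bars, most of them smaller than the symbols. *HERPUD1* went from 31.1 to 92.8 in MDA-MB-231 cells and from 113 to 383 in MDA-MB-435 cells, while *DERL3* stayed below 1 in every library.

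*HERPUD1*, whose product recruits and organises HRD1 complexes in the ER membrane, had 696 counts in the MDA-MB-231 control and 1529 after CPYPP. In MDA-MB-435 it had 2702 and 7353 counts. Both CPYPP libraries were higher than their controls, and the MDA-MB-435 control lay above the CPYPP library of MDA-MB-231 in CPM as well. Between the libraries of MDA-MB-231 it rose 2.99-fold (2.73 to 3.27), and between those of MDA-MB-435 it rose 3.39-fold (3.25 to 3.55). These values stood at percentiles 97.7 and 98.9 of the fold changes of all genes tested in their lines. The ratio of the MDA-MB-435 fold to the MDA-MB-231 fold was 1.14 (1.03 to 1.26, counting error), so the lines' responses were close for this gene.

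*HERPUD1* (chr16:56932142-56944864, plus strand) contains a pair of sense intronic genes of GENCODE v29, whose reads cannot be told apart from those of unspliced *HERPUD1* RNA. One, AC012181.1, had 6 and 10 counts in MDA-MB-231 cells and 21 and 70 in MDA-MB-435 cells. The other, AC012181.2, had 6 and 16 counts in MDA-MB-231 cells and 24 and 91 in MDA-MB-435 cells. Each was higher in the CPYPP library of each line, with folds of 2.27 (0.746 to 7.58) and 4.16 (2.52 to 7.13) for AC012181.1 and of 3.62 (1.35 to 11.3) and 4.73 (2.99 to 7.75) for AC012181.2. The counts are too few to set these folds apart from those of *HERPUD1*, since the intervals overlap in each line.

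*XBP1*, the transcription factor downstream of IRE1α, had 1540 and 2090 counts in MDA-MB-231 cells and 1401 and 4237 in MDA-MB-435 cells. The control libraries were near each other, at 68.8 and 58.5 CPM, and the CPYPP libraries were at 127 and 221 CPM. The fold was 1.84 (1.73 to 1.97) in MDA-MB-231, below the fold that the call required, and 3.77 (3.55 to 4.01) in MDA-MB-435, where *XBP1* was called. The fold in MDA-MB-435 was 2.04 times (1.87 to 2.24, counting error) that in MDA-MB-231, the widest gap between the lines among the 10 genes. With 1 library per condition the difference between lines could not be tested. No other gene of the deposited table overlaps *XBP1* (chr22:28794555-28800597), so its counts have no overlapping neighbour to share reads with.

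*ERN1*, the gene of the sensor IRE1α, had 401 and 581 counts in MDA-MB-231 cells and 418 and 455 in MDA-MB-435 cells. It was at 17.9 and 17.4 CPM in the controls and at 35.3 and 23.7 CPM after CPYPP. The fold was 1.97 (1.73 to 2.24) in MDA-MB-231, with an interval that includes the fold of 2 required for a call, and 1.36 (1.19 to 1.55) in MDA-MB-435. In contrast to *XBP1*, the fold was lower in MDA-MB-435, at 0.689 times (0.573 to 0.828, counting error) that in MDA-MB-231. The folds of the sensor and of its target mRNA were thus ordered oppositely between the lines, with intervals of counting error that exclude 1.

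*ATF6*, the other sensor among the 10, had 2755 and 2278 counts in MDA-MB-231 cells and 1271 and 1098 in MDA-MB-435 cells. In CPM it was at 123 and 138 in the first line and at 53.1 and 57.1 in the second. The folds were 1.12 (1.06 to 1.19) and 1.08 (0.993 to 1.17), neither of them called. Its mRNA level says nothing of cleavage of the protein.

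**Figure D3:**
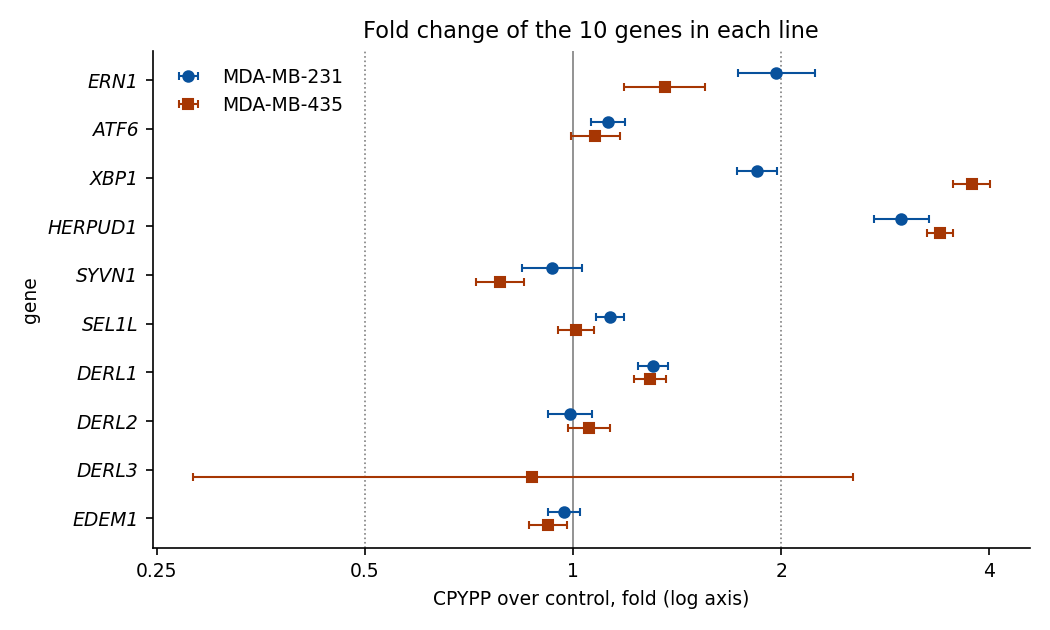
Fold change of CPYPP over control (log axis) of the 10 genes in MDA-MB-231 (circles) and MDA-MB-435 (squares), with 95% Clopper-Pearson intervals as bars and dotted lines at folds of 0.5 and 2; *DERL3* was not tested in MDA-MB-231. *HERPUD1* lies beyond 2 in both lines and *XBP1* in MDA-MB-435, at 3.77, while the other 7 genes tested in MDA-MB-435 apart from *ERN1* lie between 0.785 and 1.29.

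Among the members of the HRD1 complex, *SYVN1* and *SEL1L* were not called in either line. *SYVN1*, the ligase gene, had 954 and 655 counts in MDA-MB-231 cells and 1592 and 1003 in MDA-MB-435 cells. Its fold was 0.933 (0.843 to 1.03) in MDA-MB-231, and 0.785 (0.725 to 0.851) in MDA-MB-435, the lowest fold of the 10 genes in that line. *SEL1L*, the adaptor that holds HRD1 in the complex, had 3907 and 3252 counts in MDA-MB-231 cells and 2334 and 1891 in MDA-MB-435 cells. Its folds were 1.13 (1.08 to 1.19) and 1.01 (0.950 to 1.07), and the second fell below 1 with other scaling factors, to 0.942 with total counts. *SYVN1* shares 398 bases with *FAU* on the same strand and lies opposite *MRPL49* over 5189 bases. The strand setting of the counting is not stated, so reads in the shared bases cannot be assigned with certainty.

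The derlins are membrane proteins through which ERAD substrates leave the ER. *DERL1* had 3095 and 2971 counts in MDA-MB-231 cells and 2623 and 2720 in MDA-MB-435 cells. Its folds were alike in both lines, at 1.30 (1.24 to 1.37) and 1.29 (1.22 to 1.36). *DERL2* had 1738 and 1266 counts in MDA-MB-231 cells and 1741 and 1475 in MDA-MB-435 cells, and its folds of 0.990 (0.920 to 1.06) and 1.06 (0.985 to 1.13) both had intervals that include 1. *DERL3* had 7, 5, 10 and 7 counts in the 4 libraries, which left it untested in MDA-MB-231 and with a fold of 0.873 (0.282 to 2.54) in MDA-MB-435. A change in *DERL3* within that interval was not detectable. *DERL3* lies opposite *SMARCB1*, which had 1106 to 4821 counts, over 3507 bases, *DERL1* lies opposite *TBC1D31* over 335 and *DERL2* opposite *MIS12* over 527. As for *SYVN1*, reads in the shared bases cannot be assigned with certainty.

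*EDEM1*, the lectin-like protein that helps to extract mannose-trimmed glycoproteins for degradation, had 3367 and 2403 counts in MDA-MB-231 cells and 2249 and 1660 in MDA-MB-435 cells. Its folds were 0.970 (0.920 to 1.02) and 0.920 (0.863 to 0.981). The interval includes 1 in MDA-MB-231 cells and lies just below it in MDA-MB-435 cells.

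The rise of *HERPUD1*, together with folds of 0.933 and 0.785 for *SYVN1*, shifted the balance between the mRNAs of the complex. Per length, *HERPUD1* was at 6.14 FPKM and *SYVN1* at 7.75 in the MDA-MB-231 control, a ratio of 0.792, and the ratio was 2.53 after CPYPP. In MDA-MB-435 the ratio of *HERPUD1* to *SYVN1* FPKM was 1.84 in the control and 7.96 after CPYPP. By counts, *HERPUD1* made up 3.77% of the reads of the 10 genes in the MDA-MB-231 control and 8.98% after CPYPP, and 16.5% and 33.6% in MDA-MB-435. The corresponding shares of *XBP1* were 8.34% and 12.3%, and 8.57% and 19.3%.

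The order of the 10 genes by FPKM changed accordingly. In the MDA-MB-231 control, *XBP1* (22.7 FPKM), *EDEM1* (22.3), *DERL1* (19.9) and *SEL1L* (18.3) had the highest levels, and the Poisson intervals of *XBP1* and *EDEM1* overlapped. *HERPUD1* ranked 8 of 10 there and 5 after CPYPP, at 18.3 FPKM. In the MDA-MB-435 control *HERPUD1* was already first, at 22.3 FPKM, followed by *XBP1* at 19.3. After CPYPP these genes reached 75.6 and 72.8 FPKM, with intervals that touch (73.9 to 77.3 and 70.6 to 75.0), and *DERL1* was next at 20.4. *ERN1*, at 0.911 to 1.84 FPKM, and *DERL3*, at 0.0799 to 0.11 FPKM, were the lowest in every library. The order by FPKM depends on the deposited exon lengths, from 3028 bases for *XBP1* to 19153 for *ERN1*. By CPM in the MDA-MB-231 control, *XBP1* (68.8) lay below *SEL1L* (174), *EDEM1* (150), *DERL1* (138), *ATF6* (123) and *DERL2* (77.6).

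Before treatment, the lines differed in several of these genes. *HERPUD1* was 3.63-fold (3.34 to 3.95) higher in the MDA-MB-435 control, and 22.3% of the 18269 genes tested were called higher there. *ATF6* was lower, at 0.431 (0.403 to 0.461) of its MDA-MB-231 level, and 20.9% of genes were called lower. These were the 1 higher and 1 lower call among the 10 genes. *SEL1L* (0.558, 0.530 to 0.588), *EDEM1* (0.624, 0.592 to 0.659) and *SYVN1* (1.56, 1.44 to 1.69) differed by less than the fold required, and *ERN1* was alike in both controls (0.974, 0.848 to 1.12). Line and library are one in this comparison and cannot be told apart.

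The effect that the lines shared was fitted over the 4 libraries with the cell line as a block (edgeR quasi-likelihood test, adjusted p under 0.05, no fold required). The lines serve as the repeats of the treatment in it, with 1 residual degree of freedom. Of the 9 members tested, 4 rose in this fit and 0 fell, beside 6.38% and 4.09% of 16838 genes. Over all genes this is 1074 higher and 689 lower, against 848 and 1093 with total counts as the scaling, under which 3 members rose. No member had an unadjusted p under 0.05 in the lower direction, and DESeq2 also gave 0. The common log2 fold changes were 1.67 ± 0.12 for *HERPUD1* (edgeR adjusted p = 1.75e-08) and 1.40 ± 0.17 for *XBP1* (edgeR adjusted p = 1.84e-05). Those of *ERN1* and *DERL1* were 0.71 ± 0.18 (edgeR adjusted p = 0.0119) and 0.38 ± 0.12 (edgeR adjusted p = 0.0434). Each ± is a standard error of the fit, which draws on all genes for its variance, and not the spread of the 2 lines. Per line (MDA-MB-231 first), the log2 folds were 1.58 and 1.76 for *HERPUD1* and 0.88 and 1.91 for *XBP1*. They were 0.98 and 0.44 for *ERN1*, and 0.38 and 0.37 for *DERL1*. The call of *ERN1* was lost in DESeq2, and that of *DERL1* under 3 other scalings and with a lower filter. *ATF6* (0.14), *SEL1L* (0.10), *DERL2* (0.03), *EDEM1* (−0.08) and *SYVN1* (−0.23) did not pass the test.

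A list of 52 genes for ERAD, written without the members, showed 0 calls in MDA-MB-231 cells and 1 higher call in MDA-MB-435 cells. The shares called over all genes were 4.17% and 2.89% higher, and 3.13% and 7.16% lower. The called gene was *CREBRF*, a regulator of CREB3 family factors and not a component of ERAD. It had 327 and 479 counts in MDA-MB-231 cells (fold 1.99) and 446 and 1036 in MDA-MB-435 cells (fold 2.90). The list's median log2 fold changes were 0.16 and 0.16, beside −0.02 and −0.06 over all genes. In the common fit 10 of 52 rose and 1 fell, beside 6.38% and 4.09% of all genes. The genes that rose include the segregase *VCP* and its cofactors *NPLOC4* and *UFD1*, whose common log2 fold changes were 0.61, 0.48 and 0.64. *VCP* had 12675 and 12477 counts in MDA-MB-231 cells (fold 1.34) and 13152 and 18286 in MDA-MB-435 cells (fold 1.73).

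Other sensors and regulators of the unfolded protein response had 0 calls in either direction in both lines, of 27 and 25 tested from a list of 28. Beside this, 4.17% and 2.89% of all genes were called higher, and 3.13% and 7.16% lower. *EIF2AK3*, the gene of the third ER stress sensor PERK, had 687 and 944 counts in MDA-MB-231 cells and 810 and 1141 in MDA-MB-435 cells, folds of 1.87 and 1.76. It rose in the common fit, with a log2 fold change of 0.86. *ATF6B*, a paralog of *ATF6*, was at folds of 0.947 and 0.793. In all, 2 of the 27 genes tested from this list rose in the common fit and 1 fell, beside 6.38% and 4.09% of all genes. Those that rose were *EIF2AK3* and the phosphatase subunit *PPP1R15B* (0.66). The 1 that fell was *CREB3L1* (−0.67), an ER-bound transcription factor related to ATF6. The sensor genes *ERN1* and *EIF2AK3* were thus higher in both lines by less than the fold required, and *ATF6* was close to its control.

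The next list held 39 ER chaperones and secretory pathway genes that XBP1 or ATF6 are known to switch on. Beside 4.17% and 2.89% higher and 3.13% and 7.16% lower over all genes, this list had 0 lower calls and 1 higher call in each line. The gene was the same, *DNAJB9*, a co-chaperone that represses IRE1α, with 531 and 1120 counts in MDA-MB-231 cells (fold 2.87) and 470 and 1283 in MDA-MB-435 cells (fold 3.40). *HSPA5*, the gene of the ER chaperone BiP, whose ERSE is printed above, had 21511 and 20259 counts in MDA-MB-231 cells (fold 1.28) and 14382 and 16915 in MDA-MB-435 cells (fold 1.47). *HYOU1*, with a pair of ERSE-II matches, was at folds of 1.07 and 1.04, and *SDF2L1*, with 1, was at 0.815 and 0.866. Above them, *ERO1B*, an ER oxidase gene with an ERSE, was at 1.88 and 1.64, and *SERP1*, an ER membrane protein gene with an ERSE that is not on the list, was at 1.42 and 1.62. The list's medians, 0.06 and 0.06 on the log2 scale, turned to −0.00384 and −0.0389 with total counts as the scaling. In the common fit 5 of 39 rose, *DNAJB9*, *SEC24D*, *ERO1B*, *DNAJC3* and *HSPA5*, beside 6.38% of all genes. Beside 4.09% of all genes, 0 of the list fell (2 lower ones, *CRELD2* and *SSR3*, had an unadjusted p under 0.05).

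Genes with either element were counted over all windows. An ERSE or ERSE-II was found at 44 genes, of which 31 were tested in MDA-MB-231 cells and 30 in MDA-MB-435 cells. In each line 2 of them were called higher and 1 lower. Over all genes, 4.17% and 2.89% were called higher, and 3.13% and 7.16% lower. With counts this small, no difference from these shares is claimed. The median log2 fold changes were 0.04 and 0.08, beside −0.02 and −0.06. *HERPUD1* and the non-coding gene *LINC03006* (11 and 20 counts) were the 2 higher in MDA-MB-231 cells, and *HERPUD1* and *XBP1* in MDA-MB-435 cells. The 1 lower was *SYNPO* in both lines, at folds of 0.350 and 0.392. A match of letters is not a measure of binding, and no factor's binding was measured here.

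Genes of the PERK and ATF4 branch, a list of 15, had 6 higher calls in MDA-MB-231 cells and 11 in MDA-MB-435 cells. The shares called higher over all genes were 4.17% and 2.89%. The list had 0 lower calls, beside 3.13% and 7.16% over all genes. Its median log2 fold changes were 0.73 and 1.56, the highest of the 5 lists. *ATF4* had 3441 and 3810 counts in MDA-MB-231 cells (fold 1.51) and 6689 and 14544 in MDA-MB-435 cells (fold 2.71). *DDIT3*, the gene of the pro-apoptotic factor CHOP, was at folds of 2.04 and 4.91, and its call in MDA-MB-231 was lost with total counts or DESeq2 size factors. *CHAC1*, a glutathione-degrading enzyme, went from 42 to 242 counts in MDA-MB-231 cells (fold 7.83) and from 15 to 1054 in MDA-MB-435 cells (fold 87.6). *ATF3* (4.84 and 26.3), *SESN2* (5.69 and 21.2), *ASNS* (8.15 and 6.37) and *PPP1R15A* (3.59 and 4.38), genes of the integrated stress response, were called in both lines. Most of these folds, like that of *XBP1* and unlike that of *ERN1*, were higher in MDA-MB-435 than in MDA-MB-231. The name of the list is a label and not a result. PERK activity was not measured, and these mRNA levels do not show which kinase lies upstream.

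**Figure D4:**
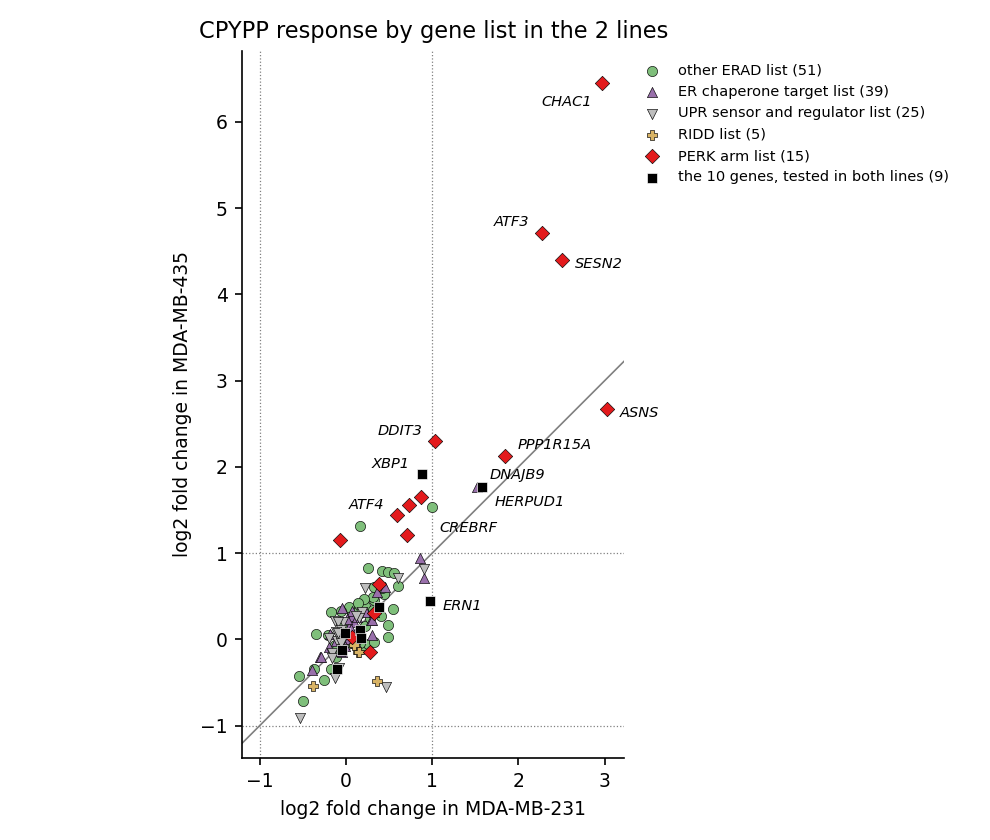
Log2 fold change of CPYPP over control in MDA-MB-231 (x axis) and MDA-MB-435 (y axis) for the members tested in both lines (black squares) and for the genes of 5 lists, with the line of equal change and dotted lines at −1 and 1. *HERPUD1* lies beside *DNAJB9*, near 1.58 and 1.76, *XBP1* lies above the line of equal change at 0.88 and 1.91, and *CHAC1*, *ATF3* and *SESN2* of the PERK arm list lie highest.

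mRNAs that IRE1α is known to degrade (regulated IRE1-dependent decay), a list of 7, had 0 calls in either direction in both lines, of 7 and 5 tested. *BLOC1S1*, the best-known of them, had 112 and 91 counts in MDA-MB-231 cells (fold 1.10) and 276 and 200 in MDA-MB-435 cells (fold 0.903). The list's medians were 0.14 and −0.15 on the log2 scale. Its 0 calls stood beside 4.17% and 2.89% called higher over all genes, and 3.13% and 7.16% lower. In the common fit 1 of 7 fell, beside 4.09% of all genes. That gene, *PMP22*, a myelin protein gene, fell by 0.46 on the log2 scale. It had 4669 and 2644 counts in MDA-MB-231 cells and 2504 and 1386 in MDA-MB-435 cells.

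Among 9363 genes with at least 100 counts in every library, those with the pattern most like a member's were found by the distance between centred log2 CPM values over the 4 libraries. The distance takes in the difference between the lines as well as the response to CPYPP. For *HERPUD1* the nearest were *TRIB3* (distance 0.52), *POPDC3* (0.60), *KLHL24* (0.63), *CEBPB* (0.79) and *HSPB8* (0.91). Their folds, MDA-MB-231 first, were 1.83 and 3.14, 3.15 and 2.01, 2.43 and 2.31, 1.63 and 2.32, and 2.76 and 2.94 in that order. *TRIB3*, a pseudokinase gene, had 242 and 325 counts in MDA-MB-231 cells and 700 and 1762 in MDA-MB-435 cells. For *XBP1* the nearest were *BACH1* (0.31), *GLA* (0.34), *C16orf72* (0.36), *ZNF267* (0.37) and *ZFAND5* (0.37). *BACH1*, a repressor of haem and redox genes, had 1620 and 2412 counts in MDA-MB-231 cells and 1854 and 4201 in MDA-MB-435 cells. With 4 libraries, the likeness describes these libraries and has no test.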

How the data were processed

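The deposited table holds raw read counts per gene in 4 libraries, as made by the authors. The submitters' processing notes name cutadapt 1.9.1, HISAT2 2.2.1, HTSeq 0.6.1, DESeq2 and the build GRCh37.p13. However, of 58254 gene IDs shared with GENCODE v29, 58196 overlap its GRCh38 positions, those of the 10 genes included, and positions are therefore given on GRCh38. The strand setting and the treatment of reads with several alignments are not given in the sources used here. The members and lists were chosen with earlier results of these data known.

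Counts were analysed with edgeR 4.0.16 in R 4.3.3. TMM factors over the 4 libraries were 1.00, 0.958, 1.06 and 0.986. Within a line, genes that reached 10 counts in 1 or both libraries were tested with binomTest and adjusted by Benjamini-Hochberg. Counts of 3 or fewer were set to 3. FPKM used the deposited exon length. *ERO1A* stands in both the chaperone and the PERK list. At these depths 1 count is worth 0.0417 to 0.0607 CPM. The common effect was fitted with glmQLFit and glmQLFTest after filterByExpr, and gave a biological coefficient of variation of 0.120, which describes how the lines' responses differ and not how cultures differ. Genes named beyond the members were the called genes of each list (up to 5), 9 preset genes (1 of them is not reported here), genes overlapping a member and the 5 nearest patterns of *HERPUD1* and *XBP1*. Genes of a list that passed the common fit, chaperones with a promoter element, *SERP1*, *LINC03006* and *SYNPO* were named after their values were seen. In all, 13 alternatives were fixed and 1 was added after seeing the data. The binomial and quasi-likelihood tests were run on simulated data with known changes, and the other steps were not.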

Additional observations from a re-analysis of the deposited data

Results flagged for a closer look

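*DERL2* had folds on opposite sides of 1 in the 2 lines, with 0.990 for MDA-MB-231 against 1.06 for MDA-MB-435. Both intervals include 1 (0.920 to 1.06 and 0.985 to 1.13), and the difference between lines was not tested.

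The sense intronic genes within *HERPUD1* are outside the main measurement and were above their controls beyond counting error in 3 comparisons. AC012181.1 was at a fold of 4.16 in MDA-MB-435, and AC012181.2 at 3.62 for MDA-MB-231, against 4.73 for MDA-MB-435. These values rest on 6 to 91 counts, and their relation to *HERPUD1* was not tested.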

How the results depend on the processing

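Of 167 values and calls of single members recomputed under the alternatives, 153 kept their direction and their side of the threshold, 9 lost their call and 5 changed sign. The assumed variation between cultures and the changed fold thresholds, given next, are not among these 167. When the coefficient of variation between cultures was assumed to be 0.4, 0 members were called higher in either line, whereas with 0.1 or 0.2 the calls numbered 1 and 2. At 0.4, few genes of any kind were called higher, 4 of 16441 in MDA-MB-231 and 13 of 16527 in MDA-MB-435. Over all genes there were 453 and 361 higher calls at 0.1, and 112 and 116 at 0.2. A fold over 1.5 gave 3 higher in MDA-MB-231, and no minimum fold gave 6 higher there, against 4 higher and 2 lower for MDA-MB-435. Over all genes, 8336 of 16441 in MDA-MB-231 and 9260 of 16527 in MDA-MB-435 had an unadjusted binomial p under 0.05. Calls without a minimum fold are therefore common and not particular to the members. The count over all genes at a fold over 1.5 was not made. With no replicate block, that is with the cell line left out of the model, 0 members had a common effect, and 0 genes of all tested were called by edgeR (171 had an unadjusted p under 0.05). The log2 fold changes were then 1.72 for *HERPUD1*, 1.45 for *XBP1*, 0.74 for *ERN1* and 0.38 for *DERL1*.

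*SEL1L* in MDA-MB-435 turned to 0.942 with total counts and 0.985 with the upper quartile. *DERL2* turned to 0.985 in MDA-MB-435 with total counts, and its common log2 fold change to −0.0498 with total counts and −0.00733 with the upper quartile. The medians that turned with total counts were those of the 10 genes in MDA-MB-435 (−0.00742), of the deposited ERAD term there (−0.0348), of the regulator list in MDA-MB-435 (−0.0877) and of the chaperone list in each line (−0.00384 for MDA-MB-231, −0.0389 for MDA-MB-435), and *CREB3L1* made 1 lower call in the regulator list. Total counts moved the median of all genes from −0.06 to −0.16 in MDA-MB-435, and from −0.02 to −0.08 in the other line. Over all genes, DESeq2 called 615 higher and 289 lower for the common effect, against 1074 and 689. Requiring 10 counts in both libraries gave 449 and 275 against 686 and 515 (MDA-MB-231), and 346 and 688 against 477 and 1184 (MDA-MB-435). The split of calls over all genes in MDA-MB-435 under total counts went from 28.7% higher to 19.9%. TMM within each line, the added alternative, left the members' counts of calls at 1 and 2. Leaving out a library would leave a condition without data. The depths limit *DERL3*, with 5 to 10 counts, and the genes within *HERPUD1*.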

Other observations

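The deposited table carries its own annotation terms, which were not used to choose the genes above. The term for the ERAD pathway names 19 genes, 3 of them among the 10, and 0 of the 15 tested in each line were called in either direction, with median log2 fold changes of 0.18 for MDA-MB-231 and 0.07 for MDA-MB-435 (−0.0348 with total counts as the scaling). In the common fit 3 of its genes rose, *DERL1*, *MARCHF6* and *VCP*. The term for the ER unfolded protein response names 55 genes, 6 of them among the 10. In MDA-MB-231 cells 2 of its 42 tested genes were called higher, *HERPUD1* and *ATF3*, near the share over all genes. In MDA-MB-435 cells 3 of 43 were, *HERPUD1*, *ATF3* and *CTH*, a cysteine-producing enzyme. The deposited row of *XBP1* carries neither term. The term for the response to ER stress names 109 genes, 2 of them among the 10. It had 3 higher and 1 lower of 75 tested in MDA-MB-231, 8 higher and 0 lower of 73 for MDA-MB-435, and 20 higher in the common fit. Its 3 higher calls in MDA-MB-231 were near the share over all genes. The deposited pathway for protein processing in the ER names 336 genes, all 10 included. It had 12 higher and 1 lower of 201 tested in MDA-MB-231, among them the heat shock genes *HSPA1A* and *DNAJB1*, 20 higher and 2 lower of 201 for MDA-MB-435, and 42 higher and 2 lower of 204 in the common fit. These genes were named after their values were seen.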
